A study of Mus musculus with 4 samples.

Results

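The unfolded protein response genes described here are Hspa5, Xbp1, Atf6, Atf3, Ddit3, Trib3, Chac1, Herpud1, Dnajb9 and Sdf2l1. They were chosen by name, as 10 of the 26561 gene rows of the deposited count table, and all 10 have a row and passed the filter on low counts. The cells were MC38, a mouse colon adenocarcinoma line that the labels call an epithelial line of wild-type genotype, grown in culture. The irradiated group (labelled IR, 2 libraries) received 30 Gy of X-rays in a single fraction and was taken 60 h later. The unirradiated group (labelled nonIR, 2 libraries) was not irradiated, and the labels state no harvest time for it, so time in culture and irradiation cannot be told apart.

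The unfolded protein response is the programme by which a cell matches the folding capacity of its endoplasmic reticulum (ER) to the load of new secretory and membrane proteins. It is read out through the sensors IRE1, PERK and ATF6, which sit in the ER membrane. IRE1 splices Xbp1 mRNA into the form that encodes the active transcription factor. ATF6 moves to the Golgi, where proteases release its transcription factor domain. PERK phosphorylates the initiation factor eIF2α, which lowers translation in general and favours that of ATF4, an activator of amino acid and stress genes. Amino acid shortage also raises ATF4, through another eIF2α kinase, so the targets of ATF4 are shared between ER stress and nutrient stress.

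Total counts were 29180110 and 26059171 in the irradiated libraries and 27995608 and 29881492 in the unirradiated ones. Levels are given as CPM, counts per 1000000 after TMM scaling of the library totals. Replicate libraries differed beyond counting noise, with a mean chi-square per gene of 4.73 in the irradiated and 3.38 in the unirradiated group, so each was kept as a sample. The labels do not say that the libraries came from separate cultures, so p-values reflect at most the spread between libraries, which may be technical. For 90.0% of the genes tested that spread is a trend fitted across genes and not the gene's own. In a bulk sample, fewer cells with a transcript and less of it per cell cannot be told apart. Of the 9 epithelial markers examined, only Cdh1 reached 5 CPM, and Epcam had 0 and 1 counts in the irradiated libraries and none in the unirradiated ones, so most epithelial markers were near 0. The sums over those 9 were 76.1 and 70.2 CPM in irradiated libraries and 38.5 and 36.5 CPM in unirradiated ones, mostly Cdh1. Summed levels of 8 fibroblast and endothelial markers were 204 and 209 CPM in irradiated libraries and 108 and 105 CPM in unirradiated ones. For 7 leukocyte markers the sums were 39.3 and 33.3 CPM in irradiated libraries and 4.99 and 4.11 CPM in unirradiated ones, mostly Cd68, while Ptprc had at most 24 counts in any library. The part of these markers in the results below was not tested.

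The 10 genes did not move as a block. By edgeR's quasi-likelihood test at a Benjamini-Hochberg adjusted p under 0.05, 3 rose after irradiation (Dnajb9, Ddit3 and Sdf2l1) and 6 fell (Trib3, Chac1, Xbp1, Atf6, Herpud1 and Hspa5). Atf3 did not pass. The background was high, since 60.7% of the 15298 genes tested were called, 30.4% as higher and 30.3% as lower. Among the 10500 tested genes with a mean of at least 5 CPM, which all 10 genes reach, 70.9% were called, 29.8% as higher and 41.0% as lower. The 9 calls of 10 stand beside that high background and are not read as particular to these genes. A called change reached 2-fold for Dnajb9, Trib3 and Chac1, as it did for 15.8% of all genes tested. That share was uneven: 1893 of the 15298 genes rose by that much, as Dnajb9 did, and only 531 fell, as Trib3 and Chac1 did. The CPM of the groups did not overlap for any of the 10 genes, which was also true of 78.4% of the genes tested. The median log2 fold change was -0.29 over the 10 genes and 0.01 over all genes tested. The latter include genes below 5 CPM, and no median was taken over the genes of at least 5 CPM alone.

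**Figure D1:**
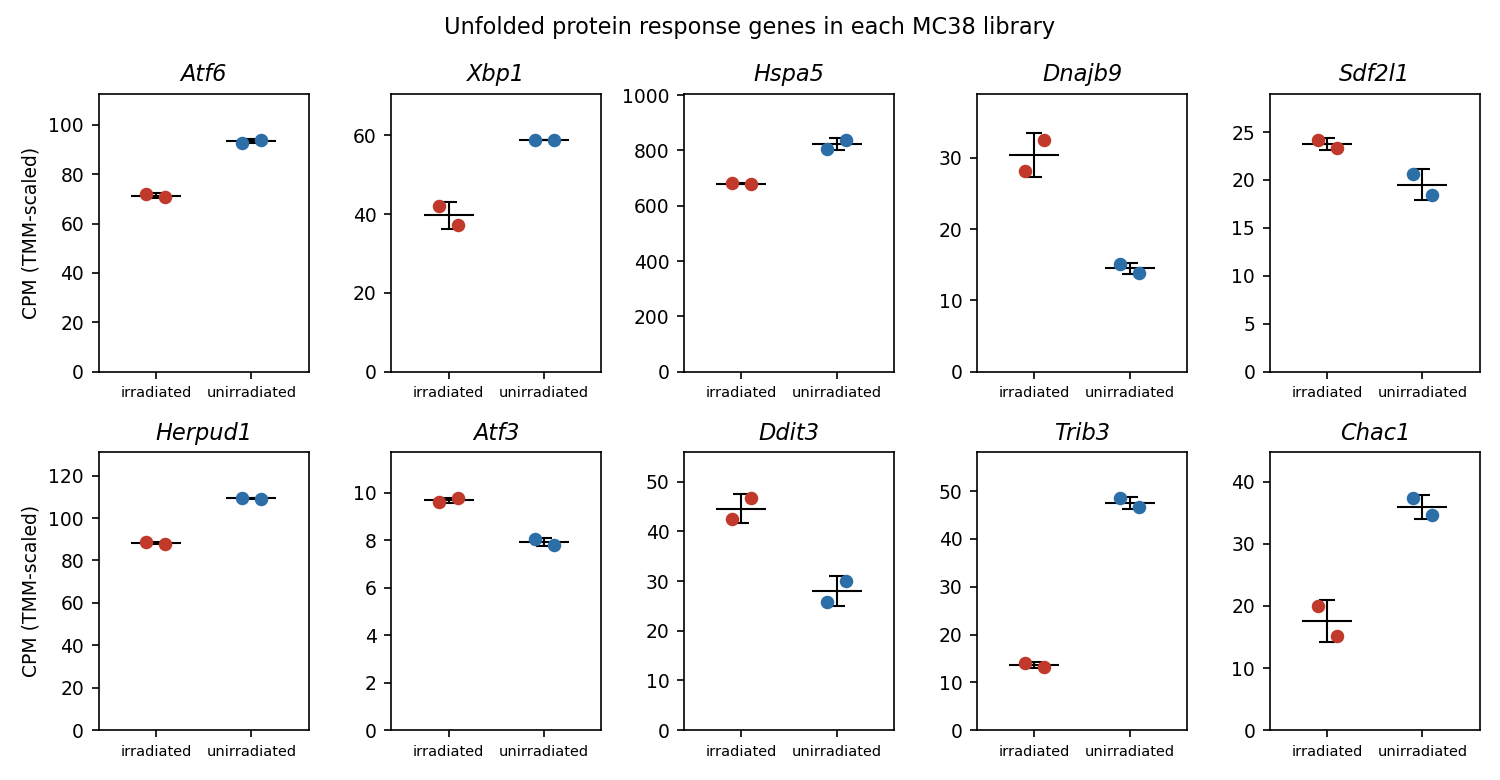
CPM of each gene in each library (points), with the group mean and SD (bars, n = 2 per group). Irradiated libraries lie above unirradiated ones for Dnajb9, Ddit3, Sdf2l1 and Atf3 and below them for the other 6 genes.

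Transcripts of the sensor kinases IRE1 and PERK rose, whereas those of the transcription factors Xbp1, Atf6 and Atf4 fell. Ern1, which encodes IRE1, had 58.4 and 55.1 CPM in irradiated libraries, against 32.1 and 34.2 CPM in unirradiated ones, which gave 0.78 as log2 fold change (SE 0.07, edgeR adjusted p = 7.43e-26). Eif2ak3, which encodes PERK, had 41.5 and 41.4 CPM in irradiated and 22.1 and 24.3 CPM in unirradiated libraries (log2 fold change 0.84, SE 0.09, edgeR adjusted p = 3.51e-21). Both kinases were thus higher in each irradiated library than in either unirradiated one, by 1.71-fold and 1.79-fold.

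Xbp1 (ENSMUSG00000020484, chromosome 11, 5520659 to 5525893, plus strand, GRCm38), the target of IRE1 splicing, was measured at 42.0 and 37.3 CPM in irradiated libraries and at 58.8 and 58.9 CPM in unirradiated ones. The irradiated libraries were both low and differed somewhat, whereas the unirradiated ones were almost equal. The decrease was 1.48-fold (log2 fold change -0.57, SE 0.07, edgeR adjusted p = 8.47e-16). Counts per gene do not separate spliced from unspliced Xbp1 mRNA, so the active form was not measured. Atf6 (ENSMUSG00000026663, chromosome 1, 170704674 to 170867771, minus strand) had 72.1 and 70.6 CPM in irradiated and 92.8 and 93.9 CPM in unirradiated libraries, a 1.31-fold decrease with little spread within a group (log2 fold change -0.39, SE 0.05, edgeR adjusted p = 5.08e-12). Its paralog Atf6b fell further, with 38.8 and 40.6 CPM in irradiated libraries against 98.1 and 87.5 CPM in unirradiated ones (2.34-fold, log2 fold change -1.23, edgeR adjusted p = 1.81e-89).

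The proteases that release ATF6 did not change alike. Mbtps2, the site-2 protease, fell (log2 fold change -0.83, SE 0.06, edgeR adjusted p = 1.98e-39), and Mbtps1, the site-1 protease, rose slightly (0.12, SE 0.03, edgeR adjusted p = 1.89e-03). The exons of Mbtps2 overlap those of Yy2 over 2867 bases, so the level of Mbtps2 alone is uncertain, although no counts were recorded for Yy2. Over a list of 20 sensors and regulators that includes Xbp1 and Atf6, 8 rose and 10 fell, with a median log2 fold change of -0.17, beside 29.8% higher and 41.0% lower among all genes of at least 5 CPM. The list's largest rises at 5 CPM or more were those of the kinases, and its largest falls were those of Atf6b and of Atf4, described with its targets.

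**Figure D2:**
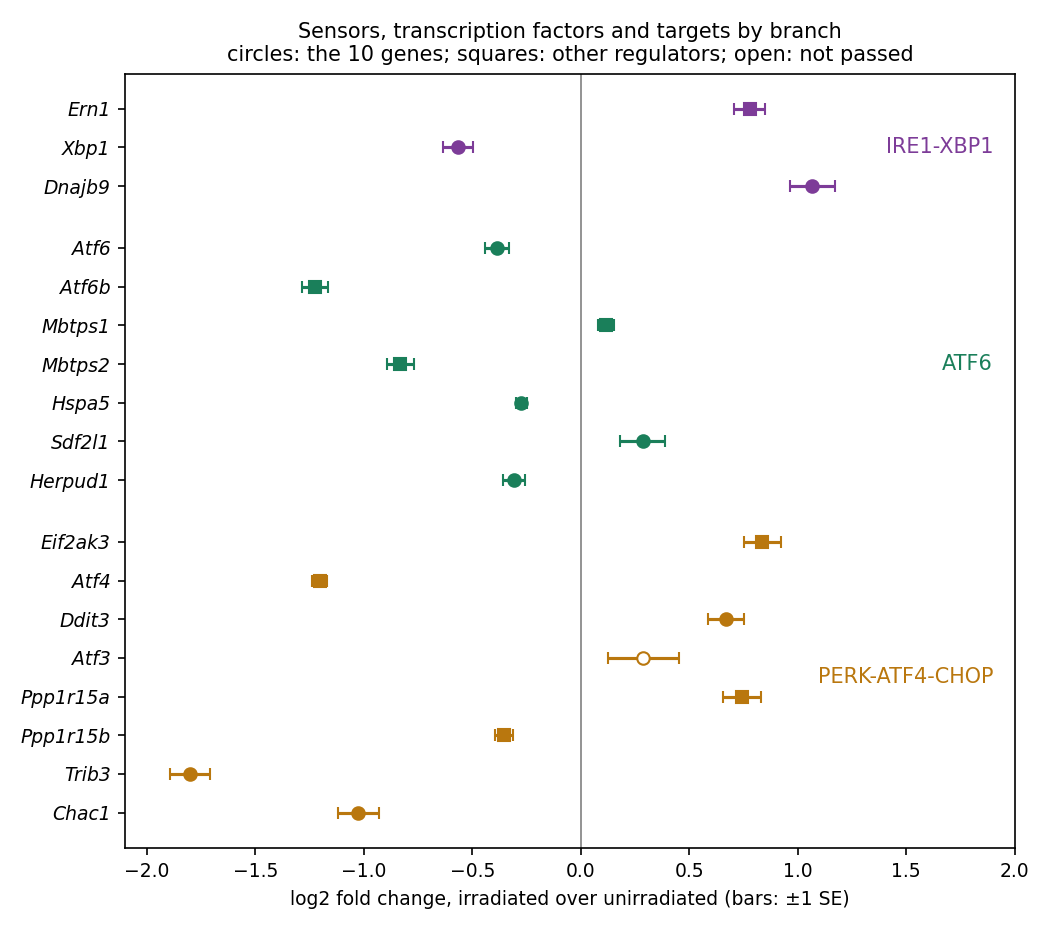
Log2 fold change, irradiated over unirradiated (±1 SE from the edgeR fit, 2 libraries per group), for the 10 genes (circles) and other regulators (squares), grouped by the branch they are most often assigned to. Within each branch some genes lie right of 0 and others left of it, for example Ern1 and Dnajb9 at 0.78 and 1.07 against Xbp1 at -0.57.

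Among chaperones of the ER lumen, Hspa5 fell slightly and Dnajb9 rose about 2-fold. Hspa5 (ENSMUSG00000026864, chromosome 2, 34771970 to 34777547, plus strand), which encodes BiP, the HSP70 chaperone that also holds the sensors inactive, had 681 and 678 CPM in irradiated libraries and 806 and 838 CPM in unirradiated ones. The irradiated libraries were nearly equal and both below the unirradiated ones. The decrease was 1.21-fold (log2 fold change -0.27, SE 0.03, edgeR adjusted p = 6.72e-25), and 37.1% of all genes tested had a smaller absolute change. The promoter window of Hspa5 in RefSeq (GRCm38.p6, chr2:34771840-34772139, plus strand) is shown because it holds an exact ER stress element, the element bound by ATF6 with NF-Y, which is CCAAT followed after any 9 bases by CCACG. The element is in capitals and begins at position -65 from the start site, and an exact match on either strand was found in 0.119% of 32851 promoter windows.
Hspa5: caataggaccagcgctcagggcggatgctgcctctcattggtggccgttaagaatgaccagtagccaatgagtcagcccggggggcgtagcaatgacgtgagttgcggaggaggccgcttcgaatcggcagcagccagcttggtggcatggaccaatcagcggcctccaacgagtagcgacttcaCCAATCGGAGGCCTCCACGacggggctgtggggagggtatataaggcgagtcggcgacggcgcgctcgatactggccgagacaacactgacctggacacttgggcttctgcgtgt

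Dnajb9 (ENSMUSG00000014905, chromosome 12, 44205559 to 44210326, minus strand) encodes ERdj4, a J-domain co-chaperone of BiP and a target of spliced XBP1. It had 28.2 and 32.5 CPM in irradiated libraries, against 15.1 and 13.9 CPM in unirradiated ones. Each irradiated library was well above both unirradiated libraries. The rise was 2.09-fold (log2 fold change 1.07, SE 0.10, edgeR adjusted p = 1.51e-23), the largest increase of the 10 genes, and 86.7% of the genes tested had a lower log2 fold change. Within a library, Dnajb9 had 4.14 and 4.80 counts per 100 counts of Hspa5 in irradiated cells and 1.87 and 1.66 in unirradiated cells, a 2.53-fold difference of the means that does not depend on how libraries are scaled.

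Sdf2l1 (ENSMUSG00000022769, chromosome 16, 17130138 to 17132383, minus strand), an ER-lumen partner of BiP and of the co-chaperone ERdj3, had 24.2 and 23.3 CPM in irradiated and 20.6 and 18.4 CPM in unirradiated libraries. The groups were close but did not overlap, and the 1.22-fold difference passed (log2 fold change 0.28, SE 0.10, edgeR adjusted p = 0.0116). Sdf2l1 did not pass without irradiated replicate 1 (adjusted p = 0.0811) or without unirradiated replicate 2 (adjusted p = 0.207), so its call rests on both.

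In the list of 30 ER chaperones and folding enzymes, which holds Hspa5, Dnajb9 and Sdf2l1, 12 rose, 13 fell and 5 did not pass, with a median log2 fold change of 0.04. The background at 5 CPM or more was 29.8% higher and 41.0% lower. These counts stand beside that background and are not read as particular to the list, which was chosen with earlier results of these data known. Beside the 10 genes, those that rose most at 5 CPM or more were Uggt1, the glucosyltransferase that returns misfolded glycoproteins to the calnexin cycle (log2 fold change 0.50, edgeR adjusted p = 4.48e-48), and Fkbp7, a prolyl isomerase (0.46, edgeR adjusted p = 2.78e-03). The steepest decreases were those of Fkbp11, another prolyl isomerase (-0.68, edgeR adjusted p = 2.07e-09), and Creld2, a secreted ER stress-inducible protein (-0.66, edgeR adjusted p = 2.10e-22). Several classical partners of BiP were examined after their values had been seen. Hyou1, which exchanges the nucleotide of BiP, and Dnajb11, which encodes ERdj3, fell (-0.51 and -0.36), as did Manf (-0.42). Of other BiP partners in the list, Dnajc10 rose (0.28), while Dnajc3 (0.07) and the nucleotide exchange factor Sil1 (-0.03) did not pass. Hsp90b1, the ER-resident HSP90, instead rose to 897 and 886 CPM in irradiated libraries, against 686 and 713 CPM in unirradiated ones (log2 fold change 0.35, edgeR adjusted p = 1.13e-40). Hsp90b1 was thus above Hspa5 in CPM in both irradiated libraries and below it in both unirradiated ones, although CPM of different genes also carry their lengths.

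Herpud1 (ENSMUSG00000031770, chromosome 8, 94386438 to 94395377, plus strand), a ubiquitin-like ER membrane protein of ER-associated degradation, the route by which misfolded proteins are sent to the proteasome, fell by a small amount. It had 88.6 and 88.0 CPM in irradiated libraries, against 109.3 and 109.2 CPM in unirradiated ones. Replicates were nearly identical and the groups were separate. The decrease was 1.24-fold (log2 fold change -0.31, SE 0.05, edgeR adjusted p = 8.78e-09). The Herpud1 promoter window (GRCm38.p6, chr8:94386179-94386478, plus strand) is shown because it holds 2 elements. In capitals, in order, are a C/EBP-ATF composite element on the minus strand (TGATGNAA, the class bound by ATF4 with C/EBP proteins) that begins at position -112, and the ER stress element II (ATTGG, any base, then CCACG) on the plus strand at -52. The ER stress element II was found in 0.0365% of all promoter windows and the composite element in 3.97%.
Herpud1: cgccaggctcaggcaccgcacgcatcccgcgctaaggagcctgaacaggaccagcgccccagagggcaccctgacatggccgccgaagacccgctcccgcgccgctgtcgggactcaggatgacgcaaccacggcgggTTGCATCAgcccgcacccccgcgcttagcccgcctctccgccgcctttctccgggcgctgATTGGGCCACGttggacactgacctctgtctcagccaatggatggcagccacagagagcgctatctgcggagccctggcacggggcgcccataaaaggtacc

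Other genes of degradation went both ways. Of 23 tested genes, including Herpud1, 6 rose, 7 fell and 10 did not pass. Among all genes of at least 5 CPM, 29.8% were called higher and 41.0% lower, 70.9% in either direction. The median log2 fold change of the list was -0.03, which turned to 0.0275 with raw library totals. Edem2, which trims mannose from misfolded glycoproteins, and Os9, a lectin that delivers them to the ligase complex, rose most (log2 fold changes 0.57 and 0.45, edgeR adjusted p = 1.50e-17 and 8.65e-23). Aup1, a membrane protein that recruits a ubiquitin-conjugating enzyme, and Ube2j2, an ER-anchored ubiquitin-conjugating enzyme, fell most (-0.61 and -0.46, edgeR adjusted p = 7.92e-19 and 2.88e-12). The exons of Aup1 overlap those of Htra2 on the opposite strand over 753 bases. Htra2 also fell (-1.05), and without strand information reads of that stretch cannot be assigned to one gene. Derl3 had 4 and 3 counts in irradiated and 7 and 3 counts in unirradiated libraries and was not tested.

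The PERK-ATF4-CHOP branch held the largest decreases of the 10 genes together with an increase. Atf4, which the naming rule takes as a regulator, had 204 and 201 CPM in irradiated libraries, against 473 and 460 CPM in unirradiated ones. The decrease of Atf4 was 2.30-fold (log2 fold change -1.20, SE 0.03, edgeR adjusted p = 2.95e-274). ATF4 is controlled largely at translation, which mRNA counts do not show.

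Trib3 (ENSMUSG00000032715, chromosome 2, 152337422 to 152344032, minus strand), a pseudokinase induced by ATF4 and CHOP, was the most changed of the 10 genes. It had 14.0 and 13.2 CPM in irradiated libraries, against 48.5 and 46.7 CPM in unirradiated ones. Both irradiated libraries were far below both unirradiated ones. The decrease was 3.48-fold (log2 fold change -1.80, SE 0.09, edgeR adjusted p = 3.32e-81), and 0.588% of the genes tested had a lower log2 fold change. Chac1 (ENSMUSG00000027313, chromosome 2, 119351229 to 119354381, plus strand), which degrades glutathione in the cytosol and is an ATF4 target, had 20.02 and 15.18 CPM in irradiated libraries, against 37.30 and 34.60 CPM in unirradiated ones. The irradiated libraries differed from each other more than for most of the 10 genes, yet both were below the unirradiated ones. Its decrease was 2.03-fold (log2 fold change -1.02, SE 0.10, edgeR adjusted p = 1.38e-25), and the log2 fold change lay between -1.25 and -0.85 when 1 library was left out.

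Ddit3 (ENSMUSG00000025408, chromosome 10, 127290774 to 127296288, plus strand) encodes CHOP, a transcription factor linked to death under prolonged ER stress, and it moved the other way. It had 42.5 and 46.6 CPM in irradiated libraries, against 25.8 and 30.1 CPM in unirradiated ones. The groups were separate, with a spread of similar size in each. The rise was 1.59-fold (log2 fold change 0.67, SE 0.08, edgeR adjusted p = 1.07e-15). Exons of Ddit3 overlap those of Mars, the methionyl-tRNA synthetase gene on the opposite strand, over 68 bases, and those of a short second gene record of the same symbol. Mars had 77.5 and 69.7 CPM in irradiated libraries and 191 and 173 CPM in unirradiated ones, so it fell (log2 fold change -1.30) while Ddit3 rose. For each 100 counts of Ddit3, the irradiated libraries held 33.1 and 28.4 counts of Trib3 and the unirradiated ones 188 and 155. Per 100 counts of Atf4, Ddit3 had 20.8 and 23.2 counts in irradiated and 5.46 and 6.55 in unirradiated libraries.

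Atf3 (ENSMUSG00000026628, chromosome 1, 191170296 to 191218039, minus strand), a stress-induced transcription factor downstream of ATF4, was the lowest of the 10 genes. It had 9.61 and 9.76 CPM in irradiated and 8.04 and 7.81 CPM in unirradiated libraries. The irradiated libraries were higher, but the difference did not pass (log2 fold change 0.29, SE 0.16, edgeR adjusted p = 0.117), nor did it under any of the 9 other settings tried.

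The promoter windows of Trib3 (GRCm38.p6, chr2:152344011-152344310, minus strand), Chac1 (chr2:119350992-119351291, plus strand) and Atf3 (chr1:191183284-191183583, minus strand) are shown because each holds 1 C/EBP-ATF composite element, in capitals, as Herpud1 does. It lies on the minus strand relative to each gene and begins at position 15 in Trib3, -193 in Chac1 and -110 in Atf3.
Trib3: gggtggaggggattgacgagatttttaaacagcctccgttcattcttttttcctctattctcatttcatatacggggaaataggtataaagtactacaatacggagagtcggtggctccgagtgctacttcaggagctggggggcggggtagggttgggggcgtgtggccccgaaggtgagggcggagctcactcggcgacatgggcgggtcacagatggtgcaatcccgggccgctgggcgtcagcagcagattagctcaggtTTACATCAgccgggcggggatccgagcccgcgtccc
Chac1: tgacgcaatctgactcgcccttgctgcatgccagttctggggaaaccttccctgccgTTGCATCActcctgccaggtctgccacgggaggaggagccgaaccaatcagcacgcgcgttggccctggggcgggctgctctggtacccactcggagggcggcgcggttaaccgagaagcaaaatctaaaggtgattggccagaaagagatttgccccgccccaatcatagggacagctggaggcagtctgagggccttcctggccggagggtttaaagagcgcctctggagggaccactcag
Atf3: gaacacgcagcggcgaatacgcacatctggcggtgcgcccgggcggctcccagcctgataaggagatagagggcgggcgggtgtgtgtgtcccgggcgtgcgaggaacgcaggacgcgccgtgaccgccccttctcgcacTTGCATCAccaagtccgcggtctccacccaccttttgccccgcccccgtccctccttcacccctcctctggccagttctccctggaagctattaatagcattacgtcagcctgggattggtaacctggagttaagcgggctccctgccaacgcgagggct
The 9 genes with a window in the table are all but Atf6, and the element was found in 4 of these 9. Those 4 include the steepest decreases (Trib3 and Chac1), a small one (Herpud1) and a gene that did not pass (Atf3). None of the 9 windows held an exact UPR element (TGACGTGG) or cAMP response element (TGACGTCA), which were found in 0.676% and 1.79% of all windows. A match describes letters in a 300-base window and not binding.

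A wider list of PERK-ATF4-CHOP targets was also examined. Of 27 tested genes, including Atf3, Ddit3, Trib3 and Chac1, 6 rose, 16 fell and 5 did not pass, with a median log2 fold change of -0.64. Among all genes of at least 5 CPM, 29.8% were called higher and 41.0% lower, so decreases outnumbered increases there too. Asns, asparagine synthetase, and Slc7a5, the large neutral amino acid transporter, fell most among genes of at least 5 CPM outside the 10. Asns had 83.3 and 81.3 CPM in irradiated libraries, against 241 and 246 CPM in unirradiated ones (log2 fold change -1.57, edgeR adjusted p = 3.81e-281). For Slc7a5 the levels were 129 and 127 CPM in irradiated and 328 and 329 CPM in unirradiated libraries (-1.36, edgeR adjusted p = 4.42e-278). Both groups were tight and far apart for each gene.

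Ddit3 is 1 of the 6 genes of this list that rose. Ppp1r15a encodes GADD34, the stress-induced subunit that directs a phosphatase to eIF2α. It had 38.4 and 40.3 CPM in irradiated libraries, against 23.1 and 23.9 CPM in unirradiated ones (log2 fold change 0.75, SE 0.09, edgeR adjusted p = 1.21e-16). Its constitutive counterpart Ppp1r15b fell (-0.35, SE 0.04, edgeR adjusted p = 5.67e-16). Nfe2l2, which encodes NRF2, a regulator of antioxidant genes and a substrate of PERK, rose to 117 and 120 CPM in irradiated libraries, against 70.4 and 76.4 CPM in unirradiated ones (0.69, edgeR adjusted p = 9.60e-39).

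**Figure D3:**
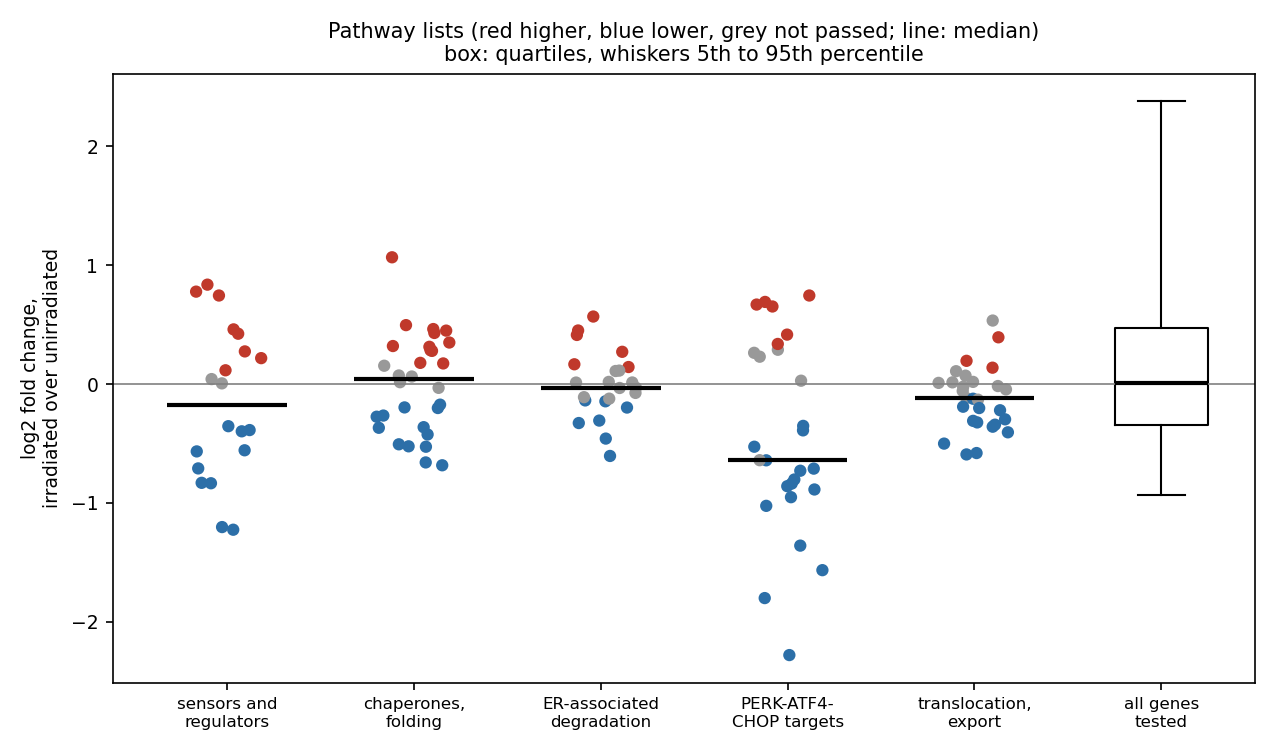
Log2 fold change, irradiated over unirradiated, of each tested gene of the 5 pathway lists (points, coloured by call) with the list median (line), beside the distribution over all 15298 genes tested (box, quartiles -0.34 and 0.48). The target list of PERK, ATF4 and CHOP has the lowest median, -0.64, and the other list medians lie between -0.17 and 0.04.

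Genes of translocation into the ER and export from it form the secretory machinery, several parts of which spliced XBP1 is known to raise. Of 28 genes, 3 rose, 13 fell and 12 did not pass, with a median log2 fold change of -0.12, beside 29.8% higher and 41.0% lower among all genes of at least 5 CPM. Spcs3, a signal peptidase subunit, and Ssr1, a translocon-associated subunit, fell most (-0.59 and -0.58, edgeR adjusted p = 1.11e-41 and 4.03e-64). Sec31a, a coat protein of vesicles that leave the ER, and Sec62, a translocon partner, rose (0.39 and 0.20, edgeR adjusted p = 5.08e-31 and 1.40e-05).

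**Figure D4:**
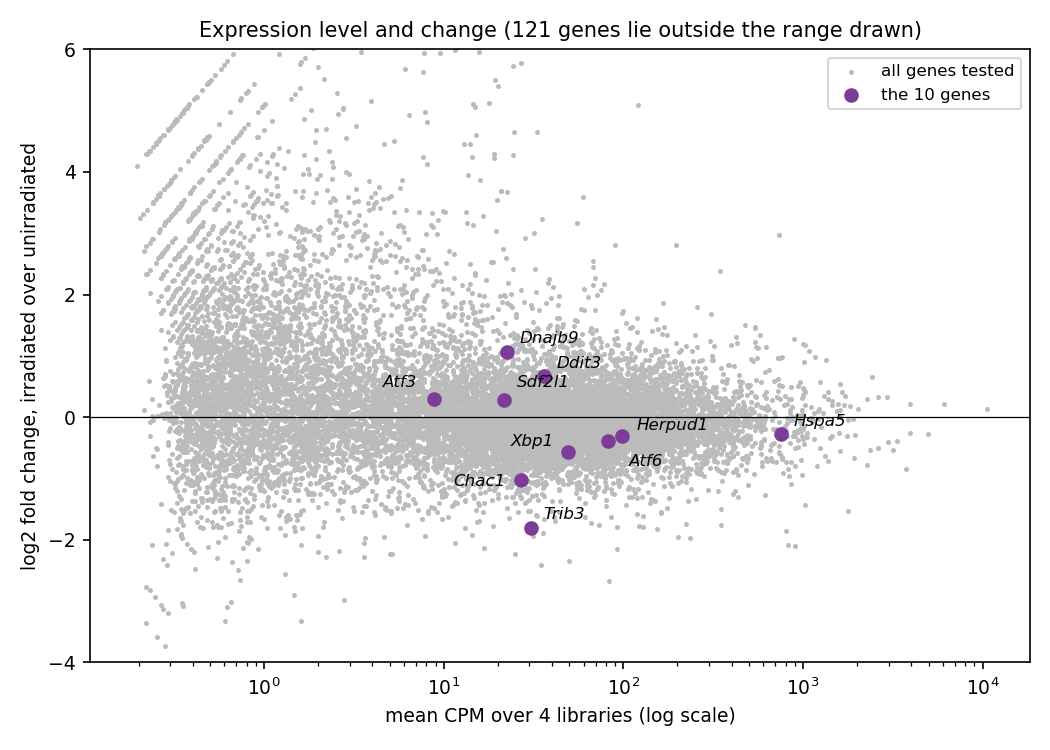
Mean CPM over the 4 libraries (log axis) and log2 fold change, irradiated over unirradiated, for all genes tested (grey) and the 10 genes (purple), with 121 genes outside the range drawn. Trib3 is the lowest of the 10 genes at -1.80, and Hspa5, with a mean above that of 99.1% of the genes tested, lies close to 0 at -0.27.

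Levels of different genes were compared as CPM per kilobase of annotated exon. In irradiated libraries the order was Hspa5 (161), Herpud1 (37.8), Ddit3 (26.0), Sdf2l1 (21.4), Xbp1 (12.2), Dnajb9 (11.9), Chac1 (10.8), Atf6 (7.73), Trib3 (6.42) and Atf3 (4.49 CPM per kilobase, means of 2 libraries). The libraries of Xbp1 and Dnajb9, and of Dnajb9 and Chac1, overlapped, and the other neighbours in that order did not. In unirradiated libraries it was Hspa5 (194), Herpud1 (46.8), Trib3 (22.4), Chac1 (22.0), Xbp1 (18.1), Sdf2l1 (17.6), Ddit3 (16.3), Atf6 (10.1), Dnajb9 (5.68) and Atf3 (3.68 CPM per kilobase). There the overlapping neighbours were Trib3 with Chac1, Xbp1 with Sdf2l1, and Sdf2l1 with Ddit3. Ddit3 ranked 3 in irradiated and 7 in unirradiated cells, whereas Trib3 ranked 9 in irradiated and 3 in unirradiated cells. These places depend on the length used. Per kilobase of the longest annotated transcript, Ddit3 ranked 2 in irradiated and 3 in unirradiated cells and Trib3 ranked 9 in irradiated and 5 in unirradiated cells. By either length Hspa5, Atf6 and Atf3 kept ranks 1, 8 and 10 in both groups, and Herpud1 and Xbp1 kept theirs (2 and 5) by exon length only.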

How the data were processed

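The deposited table holds whole-number counts per Ensembl gene, not normalized, 1 column per library. HISAT2, HISAT, HTSeq, DESeq2 and the mm10 build are named, without versions or roles, per the submitters' processing notes. The sources used here name no annotation release or strand setting, so reads of overlapping genes cannot be told apart. Symbols, coordinates and exon lengths are from GENCODE M21 (GRCm38), and 159 of 26561 genes had no symbol there. Promoter windows (250 bases before to 50 after the start) are from RefSeq, GRCm38.p6, and were searched on both strands. Groups and replicate numbers follow the sample titles and column names. The description of unirradiated replicate 2 carries the number of replicate 1, against its title, but the counts of the 2 libraries differ.

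Counts were tested with edgeR 4.0.16 in R 4.3.3 (TMM, filterByExpr, robust glmQLFit, glmQLFTest, Benjamini-Hochberg over 15298 genes). Standard errors are the absolute log2 fold change over the square root of F. For 90.0% of genes the prior degrees of freedom were infinite, so the spread comes from the fitted trend. Alternatives were DESeq2 1.42.0, RLE factors, raw totals, no filter, a replicate block and leaving out each library. The pipeline was tested on simulated data.

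The genes and lists were chosen with earlier results of these data known. Beside the 10 genes, the naming rule takes 8 regulators and, per list, the 2 strongest rises and 2 strongest falls among called, separated genes of at least 5 CPM. The ER stress element II was added after values were seen.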

Additional observations from a re-analysis of the deposited data

How the results depend on the processing

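Over the 9 alternatives, the log2 fold changes of the 10 genes kept their direction and their side of the threshold in 88 of 90 cases. The exceptions were Sdf2l1 without irradiated replicate 1 (0.25) and without unirradiated replicate 2 (0.19), fits with fewer libraries, and its range was 0.19 to 0.35. Same-numbered libraries did not deviate together (correlation -0.01 across genes). With 2 libraries per group, that value cannot show whether the numbers pair the samples. With the replicate block, 3 of the 10 genes rose and 6 fell, as without it, and over all genes 4507 rose and 4519 fell.

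With all libraries kept, the medians given below moved by more than 1 SD of the list median over the 4 pairings of an irradiated with an unirradiated library. That is a small spread, and the cause was not tested. The median over all genes was taken over the genes tested in each setting. That set is larger without a filter, and it may differ with DESeq2 or with 1 library left out. With raw library totals they were -0.23 for the 10 genes, -0.12 for regulators, 0.10 for chaperones, 0.0275 for degradation (a change of sign), -0.0617 for translocation and export, and 0.0708 for all genes. Without a filter they were -0.31, -0.14 for translocation and export, and 0.22 for all genes. For all genes RLE gave 0.0181 and DESeq2 0.0946. When 1 library was left out, no list median moved by more than that SD in every refit, and that of degradation in none. The median over all genes moved in each refit. Leaving out 1 library gave -0.32 to -0.29 for the 10 genes, -0.24 to -0.16 for regulators, 0.0101 to 0.0330 for chaperones, -0.0693 to -0.00388 for degradation, -0.72 to -0.53 for PERK-ATF4-CHOP targets, -0.14 to -0.11 for translocation and export, and 0.00597 to 0.0345 for all genes. Per kilobase of the longest transcript, irradiated levels were 185 (Hspa5), 18.6 (Xbp1), 9.85 (Atf6), 4.88 (Atf3), 46.0 (Ddit3), 6.73 (Trib3) and 45.2 CPM (Herpud1), where the libraries of Ddit3 and Herpud1 overlap.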
